A study of Mus musculus with 10 samples.

Results

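The 31 genes described here are expressed mainly by macrophages and were measured by bulk RNA-sequencing of mouse dorsal root ganglia (DRG), the clusters of sensory neurons beside the spinal cord. They were chosen by symbol, as genes known from macrophages. All 31 were found among the 55414 genes of the count files, all passed the filter on low counts that 17490 genes passed, and all had at least 1 count in every library. DRG were taken at E18.5 from 5 control embryos and 5 *WD1* cKO embryos, and each library is named below by its group and replicate number. *WD1* cKO embryos were Wnt1-Cre/+ with *Dach1* flox/flox, so that Cre driven by *Wnt1* regulatory sequence removes floxed *Dach1* in the neural crest, which gives rise to the neurons and glia of the DRG. Control embryos were littermates that lack Cre. Mice were kept on C57Bl/6J, and the *Dach1* flox line on a mix of C57Bl/6J and CD1. No treatment was given. In the labels, the genotype given for each library is that of the opposite group by title, and groups were taken from the titles. *Dach1* was lower in every library titled *WD1* cKO than in every control library (log2 fold change -0.92, adjusted p = 5.48e-06 by edgeR's quasi-likelihood test, adjusted by the Benjamini-Hochberg method).

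Macrophages arise from yolk sac and haematopoietic progenitors, enter peripheral tissues in the embryo and persist there, and in the DRG they lie around neuron cell bodies, along axons and beside blood vessels. They depend on the receptor Csf1r and the transcription factor PU.1, engulf dying cells and debris, produce complement C1q, and carry receptors for antibodies, lipids and chemokines. They do not derive from the neural crest, so Wnt1-Cre is not expected to act in them, and the comparison of the genotypes asks whether their transcripts in the ganglion differed when *Dach1* was removed from the cells around them.

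No macrophage gene passed the test between *WD1* cKO and control DRG. None of the 31 had an adjusted p-value under 0.05, a level that 0.0400% of all genes tested reached. By the quasi-likelihood test none reached an unadjusted p-value under 0.05, against 4.50% of all genes tested (2.12% higher and 2.38% lower in *WD1* cKO), and none did by DESeq2's Wald test, against 3.69%. In no gene were the 5 *WD1* cKO libraries all above or all below the 5 control libraries, which 0.497% of genes tested did in the higher and 0.566% in the lower direction. The summed level of the 31 genes was 229.2 ± 17.05 CPM (counts scaled to the size of the library, SD, n = 5) in control and 222.7 ± 19.1 CPM (SD, n = 5) in *WD1* cKO DRG.

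The total count per library was between 20465132 and 27528784 in control and between 19757596 and 34796562 in *WD1* cKO embryos, and the 31 genes took from 0.0199% to 0.0251% of it. The labels name neurons and glia as the cell type, and both were present, since *Prph*, *Tubb3* and *Avil* of sensory neurons and *Mbp* and *Sox10* of Schwann and satellite glia were counted in every library. The dissected tissue also held other cells in amounts that varied. Summed CPM differed 16.1-fold between the lowest and highest library for erythroid genes, 11.5-fold for neutrophil genes and 5.37-fold for skeletal muscle genes. Over both genotypes, erythroid genes were at 512.5 to 2503.6 CPM in replicates 1 to 3 and at 155.7 to 243.5 CPM in replicates 4 and 5. Spinal cord genes reached 16.5 CPM in control replicate 3 against at most 3.83 CPM in the other libraries. The 31 macrophage genes together differed 1.27-fold, from 198.3 CPM in *WD1* cKO replicate 1 to 251.4 CPM in control replicate 4. Such a range was not particular to them. It was 1.17-fold for sensory neuron, 1.23-fold for endothelial, 1.31-fold for Schwann and satellite glia and 1.39-fold for mural genes. Single macrophage genes differed more than their sum, up to 4.11-fold for *Itgam*. In bulk tissue, fewer macrophages and less RNA per macrophage cannot be told apart. Each library is labelled as a replicate and the study counts embryos, but which embryos share a litter or a day is not given, and p-values measure the spread between these libraries.

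**Figure D1:**
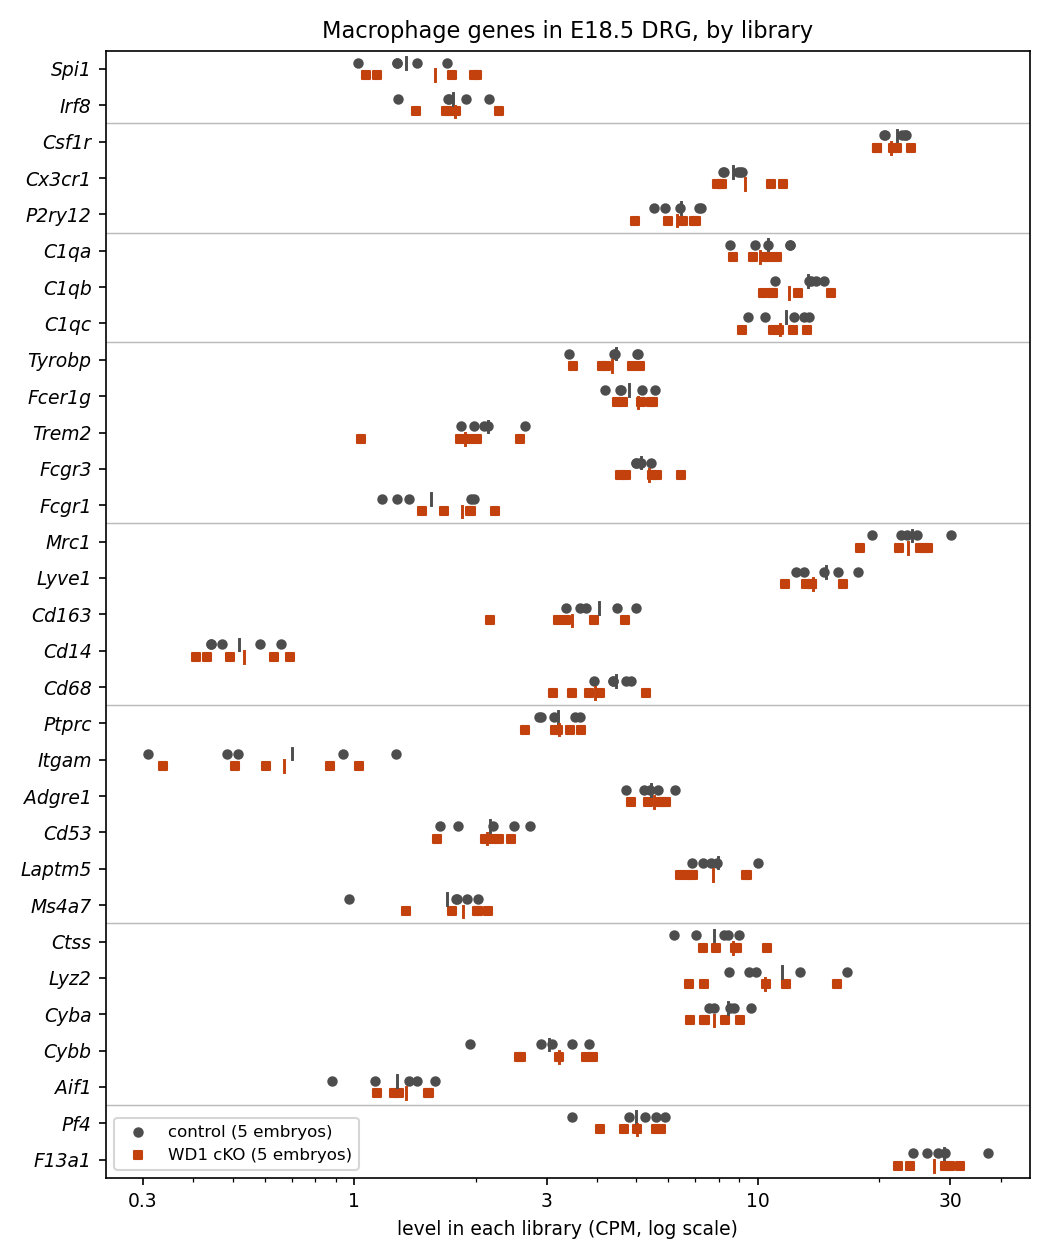
Level of each of the 31 macrophage genes in each library, in CPM on a log axis, with genes grouped by role and separated by grey lines. Circles are the 5 control libraries, squares the 5 *WD1* cKO libraries, and short vertical bars the group means. In every row the circles and squares overlap, and *Itgam* is spread most widely, from 0.309 to 1.27 CPM.

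Lineage transcription factors were low. *Spi1*, which encodes PU.1, the factor that macrophages need to form, was at 1.02, 1.28, 1.69, 1.44 and 1.28 CPM in control replicates 1 to 5 and at 1.14, 1.75, 2.02, 1.98 and 1.07 CPM in *WD1* cKO replicates 1 to 5. *WD1* cKO replicates 3 and 4 were the highest, and control replicate 1 and *WD1* cKO replicate 5 the lowest. The log2 fold change was 0.23 with a standard error of 0.22, and its 95% interval ran from -0.23 to 0.70. *Irf8*, a partner of PU.1 in macrophage and dendritic cell development, was at 1.75 ± 0.320 CPM in control and 1.78 ± 0.315 CPM in *WD1* cKO (SD, n = 5 each). Both genes rest on 21 to 69 counts per library, so that counting error alone was 16.8% and 15.3% of their levels.

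Because PU.1 binds purine-rich sites that contain GAGGAA, the promoters of the macrophage genes were searched for these letters. Promoter windows of RefSeq on GRCm38.p6, from 250 bases before to 50 bases after each transcript start, were matched to 24 of the 31 genes and amounted to 29 windows. GAGGAAGT, read on both strands, was in 5 of the 29 windows (17.2%), against 3.20% of 32851 windows of all genes. The shorter GAGGAA, which lies within it, was in 65.5% of the macrophage gene windows and 28.3% of all windows. A match is a run of letters and not a measured binding site, and no test was made. The 5 windows with the longer motif belong to *C1qc*, *Cd53*, *Ctss*, *F13a1* and *Pf4*, and the stretch around each match is shown 5′ to 3′ on the strand of the gene. Capitals mark GAGGAAGT in *F13a1* and its reverse complement in the others.
C1qc, chr4:136893091-136893120, minus strand: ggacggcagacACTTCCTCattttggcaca
Cd53, chr3:106790125-106790154, minus strand: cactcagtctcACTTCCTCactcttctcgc
Ctss, chr3:95526773-95526802, plus strand: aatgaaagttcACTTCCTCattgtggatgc
F13a1, chr13:37049181-37049210, minus strand: cgagtccttttGAGGAAGTacccagaggca
Pf4, chr5:90772414-90772443, plus strand: ttctgcagagcACTTCCTCatcctgtatcc

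These 5 genes are of several roles, with *F13a1* and *Pf4* both secreted factors. They were measured at levels from 2.13 CPM for *Cd53* to 29.0 CPM for *F13a1* as group means. None of them passed the test between the genotypes, with log2 fold changes of -0.04 for *C1qc*, -0.03 for *Cd53*, 0.16 for *Ctss*, -0.08 for *F13a1* and 0.01 for *Pf4*.

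The receptors through which macrophages read growth factors, chemokines and nucleotides included the most evenly measured gene of all. *Csf1r*, the receptor for the survival factors Csf1 and Il34, was at 20.7, 23.2, 23.3, 20.6 and 22.8 CPM in control replicates 1 to 5 and at 19.8, 21.7, 23.9, 22.1 and 19.8 CPM in *WD1* cKO replicates 1 to 5. All 10 libraries lay within a 1.21-fold range, and the variation within groups was 7.19%, the lowest of the 31 genes. Its log2 fold change was -0.05, with a 95% interval from -0.19 to 0.10. Exons of *Csf1r* and of *Hmgxb3*, on the opposite strand, share 873 bases in the GENCODE annotation of GRCm38, and *Hmgxb3* had a mean of 1064 counts, so the *Csf1r* level is uncertain to the extent that strand was not used in counting, which the sources used here do not give.

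*Cx3cr1*, the receptor for the neuronal chemokine Cx3cl1, was at 8.19, 9.13, 9.04, 8.24 and 8.93 CPM in control and at 10.8, 8.13, 11.5, 8.18 and 7.91 CPM in *WD1* cKO replicates 1 to 5. *WD1* cKO replicates 1 and 3 stood above every control library, while the other *WD1* cKO libraries lay below all of them. *P2ry12*, a purinergic receptor best known from microglia, was at 6.45 ± 0.756 CPM in control and 6.30 ± 0.848 CPM in *WD1* cKO (SD, n = 5 each). Its exons share 9 bases with *Med12l* on the opposite strand.

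Of the ligands these receptors and macrophages in general respond to, 7 of 11 genes passed the filter. *Cxcl12* and *Csf1* were the highest, with group means in control of 33.9 and 25.9 CPM, and *Il34* was at 6.92 CPM. *Cx3cl1* was lower in *WD1* cKO at an unadjusted p-value under 0.05 and did not pass after adjustment (log2 fold change -0.40, standard error 0.13, unadjusted p = 0.00913, Benjamini-Hochberg adjusted p = 1.00 by edgeR's quasi-likelihood test). Its level was 12.4, 13.2, 14.6, 14.6 and 15.9 CPM in control and 11.8, 8.4, 8.98, 10.2 and 14.1 CPM in *WD1* cKO replicates 1 to 5, so the groups overlapped, and *WD1* cKO replicate 5 lay within the control range. The study also picked *Cx3cl1* from these libraries, so this is not independent evidence. *Csf2* had no count in any library.

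*C1qb* and *C1qa* were the highest macrophage genes per length of exon in control DRG, while *C1qc*, at 6.07 CPM per kilobase, came after *Lyz2*, *Cyba*, *Pf4* and *Tyrobp*. *C1qa*, *C1qb* and *C1qc* encode the subunits of C1q, the recognition molecule that starts the classical complement pathway, and they lie next to each other on chromosome 4. *C1qb* was at 13.4, 11.1, 14.0, 14.6 and 13.6 CPM in control replicates 1 to 5 and at 10.9, 10.3, 10.9, 12.6 and 15.2 CPM in *WD1* cKO replicates 1 to 5. Of the *WD1* cKO libraries 4 lay below 4 of the control libraries, but replicate 5 was the highest of all 10. The log2 fold change of -0.15 (standard error 0.11) had the smallest p-value of the 31 genes, 0.191 without adjustment in edgeR's quasi-likelihood test.

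For *C1qa* the group means were 10.6 ± 1.47 CPM in control and 10.1 ± 0.974 CPM in *WD1* cKO, and for *C1qc* 11.7 ± 1.72 and 11.4 ± 1.53 CPM (SD, n = 5 each). All 3 chains had a log2 fold change below 0, with 95% intervals that spanned 0 and lay between -0.40 and 0.21. Of 13 further genes of the complement pathway, 12 passed the filter, with 7 above and 5 below 0 and none at an unadjusted p-value under 0.05. *Serping1*, the C1 inhibitor, and *Cd55*, a brake on complement at the cell surface, were the most abundant of them, at 72.9 and 81.1 CPM in control.

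**Figure D2:**
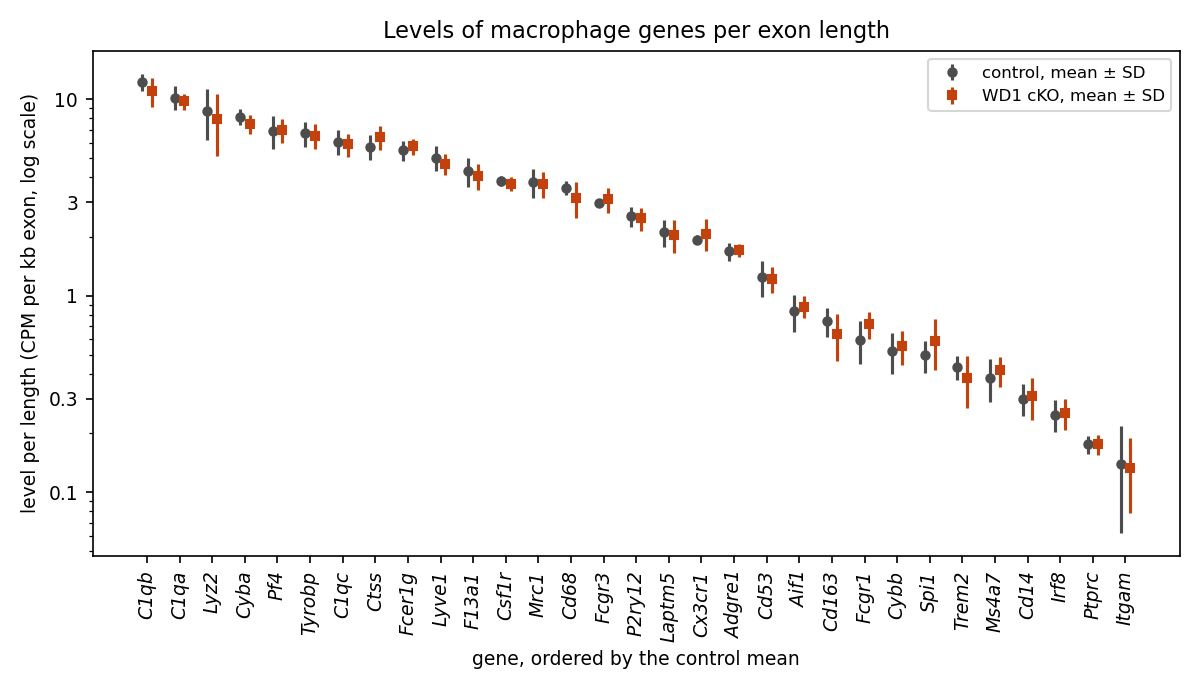
Group means of the 31 genes in CPM per kilobase of exon, on a log axis, ordered by the control mean. Circles are control and squares *WD1* cKO, and bars are the SD over 5 libraries. The order runs from *C1qb* at 12.3 to *Itgam* at 0.140 CPM per kilobase in control, and the bars of both groups overlap for each gene.

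Levels per exon length allow genes to be compared with each other. In control DRG the order began with *C1qb* at 12.3 ± 1.24, *C1qa* at 10.2 ± 1.42, *Lyz2* at 8.71 ± 2.51 and *Cyba* at 8.14 ± 0.781 CPM per kilobase (SD, n = 5). Each of these lay within 2 SD of its neighbour in this order. *F13a1*, *Csf1r* and *Mrc1*, the highest genes in CPM, were at 4.30, 3.83 and 3.78 CPM per kilobase because their transcripts are longer. The order ended with *Cd14* at 0.30, *Irf8* at 0.249, *Ptprc* at 0.175 and *Itgam* at 0.140 CPM per kilobase. The same measure was 1096 for the neuronal gene *Prph* and 29.4 for the glial gene *Sox10* in control.

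Receptors for antibody constant regions and their adaptors were measured at low to moderate levels. *Tyrobp* and *Fcer1g*, short adaptor proteins that carry the signal of several immune receptors, were at 4.47 ± 0.665 and 4.81 ± 0.547 CPM in control and at 4.36 ± 0.641 and 5.04 ± 0.465 CPM in *WD1* cKO (SD, n = 5 each). *Fcgr3*, a low-affinity receptor for IgG, was at 5.14 ± 0.192 CPM in control and 5.37 ± 0.762 CPM in *WD1* cKO. The spread of *Fcgr3* in control was small, with 5 libraries between 4.98 and 5.46 CPM.

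*Fcgr1*, the high-affinity receptor for IgG, had the largest log2 fold change above 0 of the 31 genes. It was at 1.17, 1.28, 1.37, 1.95 and 1.98 CPM in control and at 1.47, 1.67, 1.95, 2.24 and 1.93 CPM in *WD1* cKO replicates 1 to 5. Control replicates 4 and 5 reached the level of the *WD1* cKO libraries, and the log2 fold change was 0.25 with a 95% interval from -0.15 to 0.64. *Trem2*, a lipid receptor that signals through *Tyrobp*, was at 2.15, 2.65, 1.84, 2.10 and 1.98 CPM in control and at 1.94, 2.58, 2.02, 1.83 and 1.04 CPM in *WD1* cKO replicates 1 to 5. *WD1* cKO replicate 5 stood apart below the rest, and without it the log2 fold change of *Trem2* went from -0.20 to -0.029. *Fcgr2b* and *Fcgr4*, related to *Fcgr3*, had means of 49.2 and 9.2 counts, and how reads shared between such copies were counted is not given in the sources used here.

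Scavenger and endocytic receptors held the macrophage gene that was lowest in *WD1* cKO relative to control. *Cd163*, the receptor for haemoglobin bound to haptoglobin, was at 3.76, 3.35, 3.62, 5.01 and 4.49 CPM in control and at 3.20, 2.17, 3.94, 3.35 and 4.71 CPM in *WD1* cKO replicates 1 to 5. *WD1* cKO replicate 2 was well below the other libraries, and the log2 fold change of -0.21 (standard error 0.19) became -0.084 without it. Erythroid genes, whose product *Cd163* takes up, were at 2503.6 CPM in control replicate 1 and 155.7 CPM in control replicate 4, while *Cd163* was higher in control replicate 4, and the part of blood in its level was not tested.

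*Mrc1*, the mannose receptor, was at 19.2, 24.8, 22.6, 30.2 and 23.5 CPM in control and at 22.4, 17.9, 25.3, 26.4 and 26.0 CPM in *WD1* cKO replicates 1 to 5. *Lyve1*, the hyaluronan receptor of perivascular macrophages and lymphatic vessels, was at 12.4, 14.6, 15.8, 17.7 and 13 CPM in control and at 13.2, 11.7, 16.3, 13.6 and 13.7 CPM in *WD1* cKO replicates 1 to 5. Both were highest in control replicate 4 and lowest in *WD1* cKO replicate 2, and the groups overlapped. *Prox1*, which defines lymphatic endothelium, was highest in control replicate 3 at 3.48 CPM and at 1.91 CPM in control replicate 4, and the part of lymphatic vessels in the *Lyve1* level was not tested.

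*Cd68*, a glycoprotein of lysosomes, was at 4.45 ± 0.357 CPM in control and 3.95 ± 0.834 CPM in *WD1* cKO (SD, n = 5 each), with a log2 fold change of -0.17 and a 95% interval from -0.46 to 0.13. *WD1* cKO replicate 3 was at 5.30 CPM, the highest library, and without it the log2 fold change was -0.30 with an unadjusted p = 0.0195 and an adjusted p = 1.00 by edgeR. *Cd14*, the co-receptor for bacterial lipopolysaccharide, rested on 8 to 21 counts per library. The 95% interval of its log2 fold change ran from -0.44 to 0.53, and differences within that range could not be told from none.

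Surface molecules shared by leukocytes were measured next. *Ptprc*, which encodes CD45 of all nucleated blood cells, was at 3.21 ± 0.348 CPM in control and 3.21 ± 0.369 CPM in *WD1* cKO (SD, n = 5 each). *Adgre1*, which encodes F4/80 and is used to stain mouse macrophages, was at 5.45 ± 0.562 and 5.53 ± 0.434 CPM. *Cd53* and *Laptm5*, membrane proteins of blood cells, had log2 fold changes of -0.03 each. *Laptm5* ranged from 6.40 to 10 CPM and *Cd53* from 1.60 to 2.73 CPM over the 10 libraries.

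*Itgam*, which encodes CD11b of macrophages and neutrophils, varied most of the 31 genes. Its level was 1.27, 0.309, 0.941, 0.515 and 0.484 CPM in control and 0.337, 0.874, 1.03, 0.508 and 0.606 CPM in *WD1* cKO replicates 1 to 5. The high libraries were replicates 1 and 3 of control together with 2 and 3 of *WD1* cKO, and each group also held low ones. Variation within groups was 49.5%, against 24.6% from counting, and the 95% interval of the log2 fold change ran from -0.86 to 0.82. Annotated exons of *Itgam* share 3450 bases with *Gm49368* on the same strand, a gene with no counts in these files, and how reads on shared bases were treated is not given in the sources used here. *Ms4a7*, a membrane protein of tissue macrophages, was at 1.90, 0.970, 1.79, 2.02 and 1.80 CPM in control and at 1.35, 1.75, 2.15, 2.03 and 2.02 CPM in *WD1* cKO replicates 1 to 5, with control replicate 2 below all others.

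**Figure D3:**
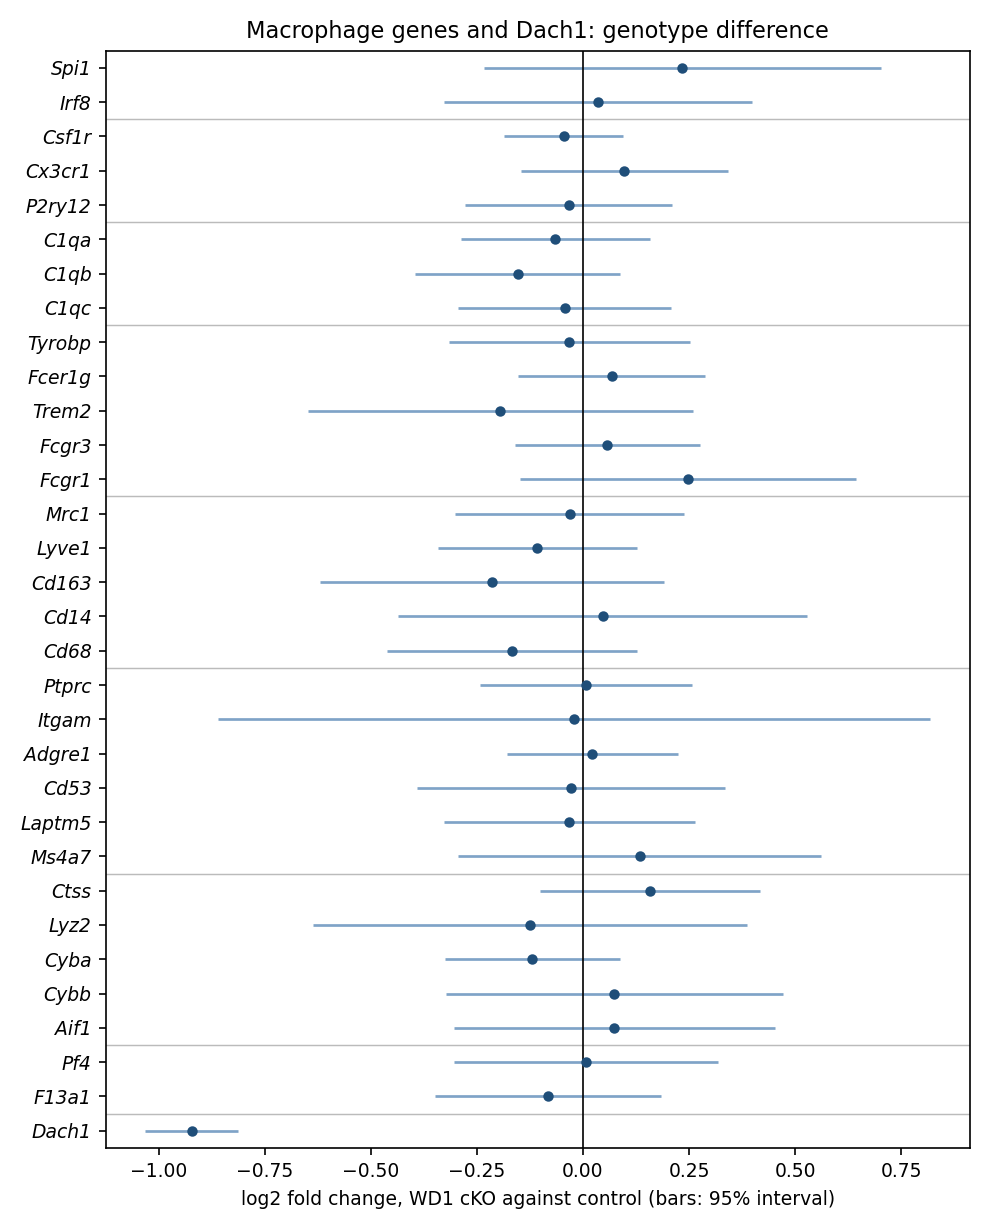
Log2 fold change of *WD1* cKO against control for the 31 macrophage genes, grouped by role, and for *Dach1* in the last row. Points are estimates of edgeR's quasi-likelihood fit and bars their 95% intervals. The interval of each macrophage gene crosses 0, and that of *Dach1* lies from -1.03 to -0.81.

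Effectors of digestion, oxidant production and the cytoskeleton made up the next group. *Ctss*, a lysosomal protease of antigen-presenting cells, was at 7.02, 6.22, 8.24, 8.98 and 8.45 CPM in control and at 7.33, 7.87, 10.5, 8.79 and 8.89 CPM in *WD1* cKO replicates 1 to 5. Of the *WD1* cKO libraries replicate 3 alone exceeded the control range, and the log2 fold change was 0.16 with a 95% interval from -0.10 to 0.42. *Cyba* and *Cybb*, the membrane subunits of the phagocyte NADPH oxidase, had log2 fold changes of -0.12 and 0.07. *Aif1*, the actin-bundling protein Iba1 used to stain macrophages, was at 1.28 ± 0.276 CPM in control and 1.35 ± 0.173 CPM in *WD1* cKO (SD, n = 5 each).

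*Lyz2*, the lysozyme of macrophages and neutrophils, was at 12.7, 9.53, 16.7, 9.90 and 8.49 CPM in control and at 7.37, 15.8, 11.8, 6.76 and 10.5 CPM in *WD1* cKO replicates 1 to 5. Control replicate 3 and *WD1* cKO replicate 2 were the highest, and variation within groups was 31.8% against 6.13% from counting. The neighbouring copy *Lyz1* had 0 to 10 counts per library. Summed CPM of 10 neutrophil genes was 41.4 in *WD1* cKO replicate 2, 35.3 in control replicate 1, 14.9 in control replicate 3 and between 3.61 and 8.29 in the other libraries. The lowest was control replicate 5. Of these 10 genes 6 passed the filter, and *S100a8* and *S100a9*, which neutrophils hold in large amounts, were highest in the same libraries, at 7.45 and 11.4 CPM in *WD1* cKO replicate 2. *Lyz2*, *Itgam* and *Cybb* were thus high in libraries that were high in neutrophil genes, although *Itgam* was also high in *WD1* cKO replicate 3 and *Cybb* in *WD1* cKO replicate 4, where the neutrophil sum was 5.93 and 6.71 CPM. The part of neutrophils in these levels was not tested. With both *WD1* cKO replicate 2 and control replicate 1 left out, a choice made after seeing the data, no macrophage gene had an unadjusted p-value under 0.05, against 4.21% of all genes tested, and the median log2 fold change of the 31 genes was again -0.028.

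The secreted factors included the most abundant macrophage gene in CPM. *F13a1*, the catalytic chain of clotting factor XIII, was at 24.3, 29.2, 27.9, 37.2 and 26.4 CPM in control and at 23.8, 22.3, 31.7, 29.2 and 30 CPM in *WD1* cKO replicates 1 to 5. Control replicate 4 was the highest and *WD1* cKO replicate 2 the lowest, as for *Lyve1* and *Mrc1*. *Pf4*, a chemokine of platelets and of tissue macrophages, was at 5.00 ± 0.948 CPM in control and 5.03 ± 0.694 CPM in *WD1* cKO (SD, n = 5 each). Of 7 megakaryocyte and platelet genes only *Itga2b* passed the filter, and *Ppbp* and *Gp9*, which define platelets, had 1 to 8 counts per library.

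Over all 31 genes the differences between the genotypes were small and of both signs. The log2 fold change was above 0 in 14 genes and below 0 in 17, with a median of -0.028 against 0.00022 over all genes tested. The median absolute log2 fold change was 0.068, against 0.053 over all genes tested and 0.077 over the 9365 genes tested whose mean CPM lay in the range of the macrophage genes. Standard errors ran from 0.065 for *Csf1r* to 0.39 for *Itgam*. The 95% interval lay within 1 of 0 on the log2 scale for all 31 genes, within 0.5 for 23 and within 0.3 for 8. These 8 are *Csf1r*, *C1qa*, *C1qc*, *P2ry12*, *Fcer1g*, *Fcgr3*, *Ptprc* and *Adgre1*. For each of the others the interval reached beyond 0.3 in at least 1 direction, and a difference of 0.3 in that direction could not be told from none.

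By role, the summed level of lineage transcription factors was 3.10 ± 0.466 CPM in control and 3.37 ± 0.601 CPM in *WD1* cKO, of C1q chains 35.7 ± 4.15 and 33.5 ± 3.86 CPM, and of scavenger receptors 47.8 ± 6.28 and 45.2 ± 5.92 CPM (SD, n = 5 each). In these sums too the groups overlapped. Scavenger receptors and secreted factors were both highest in control replicate 4 and lowest in *WD1* cKO replicate 2, whereas lysosomal and oxidase genes were highest in control replicate 3 and lowest in *WD1* cKO replicate 1.

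**Figure D4:**
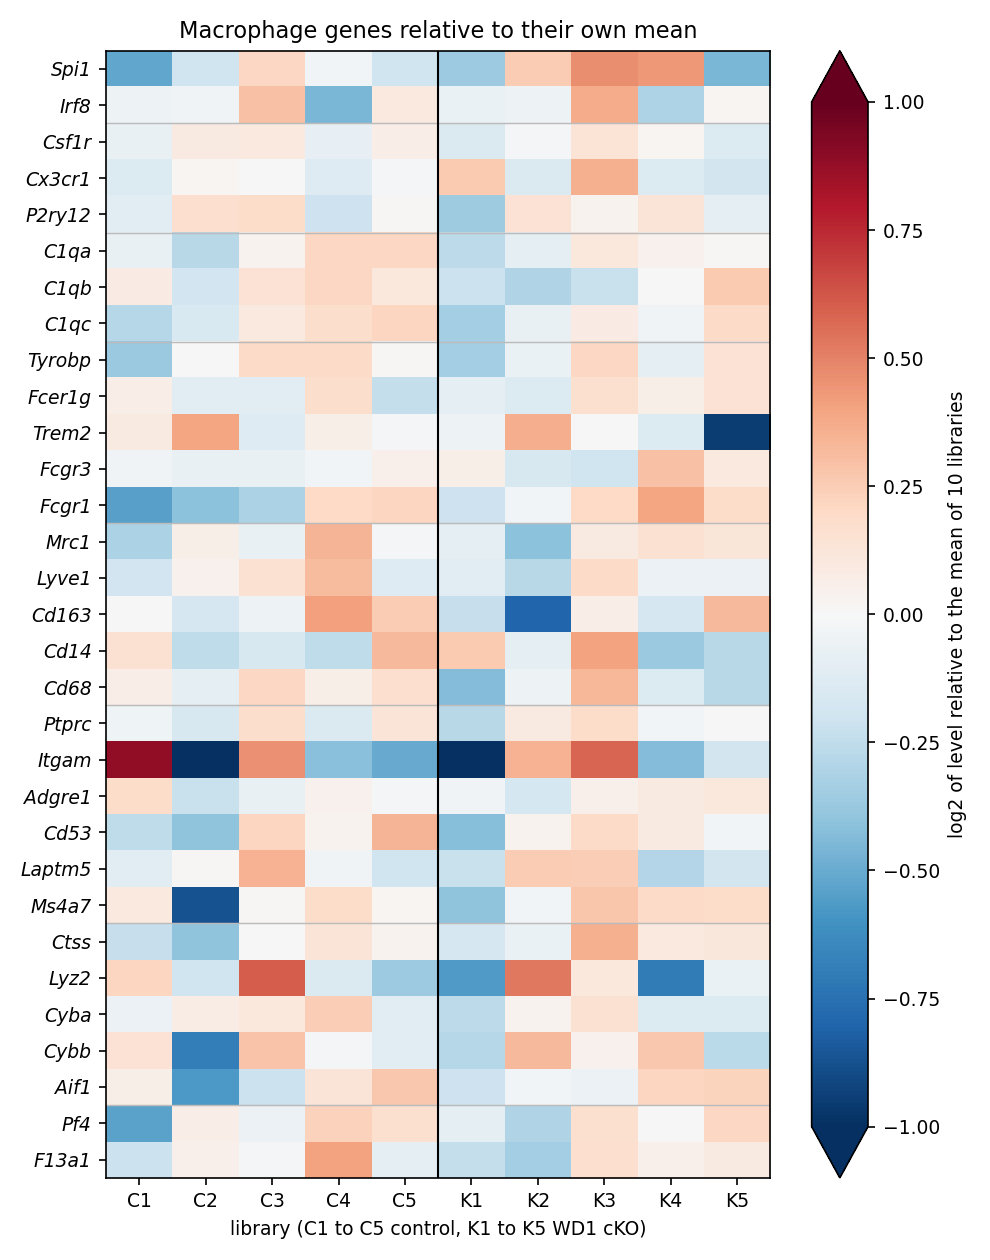
Log2 of the CPM of each macrophage gene relative to its own mean over the 10 libraries (C1 to C5, control replicates 1 to 5, K1 to K5, *WD1* cKO replicates 1 to 5). Red is above and blue below the mean, with colours ending at 1 and -1. Columns differ within each group, and K3 is the highest library for 10 genes while C2 and K1 are the lowest for 7 genes each.

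The spread of the macrophage genes lay between libraries of the same genotype. *WD1* cKO replicate 3 was the highest library for 10 of the 31 genes and control replicate 4 for 7, while control replicate 2 and *WD1* cKO replicate 1 were each the lowest for 7. The median level of the 31 genes, each relative to its own mean, was 1.12 in *WD1* cKO replicate 3 and 0.858 in *WD1* cKO replicate 1, the extremes of all 10 libraries and both of the same genotype. Variation within groups was under 20% for 22 genes, and for 12 genes it was less than 1.5 times what counting alone gives.

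The macrophage genes moved together between libraries only in part. After removal of the group means, the 465 pairs of genes had a median Pearson r of 0.23 over the 10 libraries, with 329 pairs above 0 and 126 above 0.5, as a description of values that share libraries, depth and scaling. *Ctss* followed the mean profile of the other macrophage genes most closely (r = 0.95), ahead of *C1qa* (0.86), *Cd53* (0.84), *Cd68* (0.81) and *C1qc* (0.77). The r with that profile was below 0 for *Trem2* (-0.32) and *Fcgr3* (-0.23). The lowest r of the 465 pairs was -0.91, between *C1qb* and *Trem2*. *WD1* cKO replicate 5 was the highest of the 10 libraries for *C1qb* and the lowest for *Trem2*. Genes outside the 31 whose deviations were most like the mean profile were *Spty2d1* (r = 0.95), *Aard*, *Igfbp6*, *Gm14005*, *Sdc4*, *Dnajc3*, *Kctd11* and *Ehd4* (r = 0.90), each over 10 libraries. They were picked as the highest r in a search of the 17490 genes tested. With so many genes and 10 libraries, r this high can arise by chance, and a link of these genes to macrophages was not tested. None of these 8 is in the macrophage or myeloid lists used here.

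**Figure D5:**
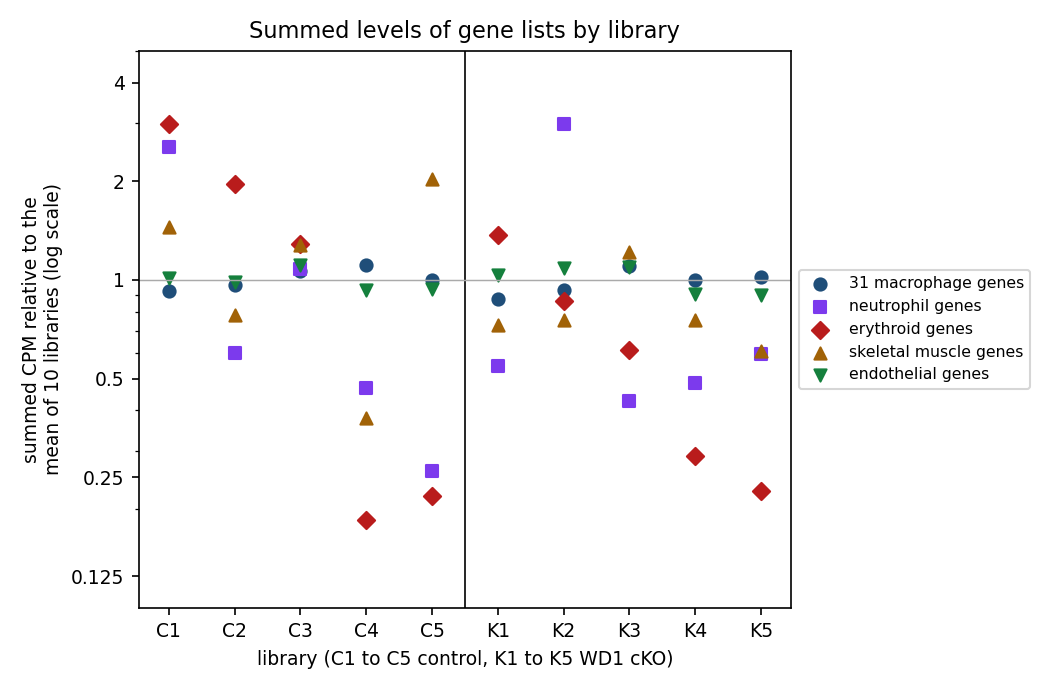
Summed CPM of 5 gene lists in each library, divided by the mean of the list over the 10 libraries, on a log axis (C1 to C5, control replicates 1 to 5, K1 to K5, *WD1* cKO replicates 1 to 5). The 31 macrophage genes and the endothelial genes stay near 1, whereas neutrophil genes peak in C1 and K2 and erythroid genes in C1 and C2.

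A further 45 genes of macrophages and related myeloid cells were compared in the same way. Of these, 40 passed the filter, 20 were above and 20 below 0, and none reached an unadjusted p-value under 0.05 by edgeR's quasi-likelihood test. The most abundant were *Coro1a*, an actin regulator, and *Lgmn*, a lysosomal protease, at 160 and 133 CPM in control. Each of these 2 exceeded every one of the 31 genes in CPM. *Tmem119*, known from microglia, was at 10.2 CPM in control and 10.8 CPM in *WD1* cKO. *Siglech*, *Folr2*, *Timd4*, *Ly6c2* and *Vsig4* did not pass the filter, and *Timd4* and *Folr2*, of long-lived resident macrophages, had 2 to 10 and 4 to 16 counts per library.

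MHC class II genes, which present antigen, were low, with a summed level of 4.80 to 9.04 CPM over the 10 libraries. All 5 passed the filter, and the groups overlapped. *H2-Eb1* and *Ciita* were the highest, at 1.96 and 1.99 CPM in control.

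Markers of other cells that the tissue could hold did not pass the test between the genotypes after adjustment either. Among lymphocyte genes, 2 of 10 T and NK cell genes and 2 of 7 B cell genes passed the filter, with *Lck* and *Cd4* and with *Cd79a* and *Cd79b*, and *Cd3e* of T cells had 2 to 14 counts per library. Of 8 mast cell and basophil genes 6 passed, and *Kit*, also known from sensory neurons, made up nearly all of their sum. *Cdh5* and *Kdr* of endothelium were at 98.5 and 62.4 CPM in control, and *Pdgfrb* and *Rgs5* of mural cells at 73.4 and 68.9 CPM. None of these had an unadjusted p-value under 0.05.

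Of 7 fibroblast and meningeal genes, all were above 0, and *Lum*, a matrix proteoglycan, had an unadjusted p = 0.0277 at a log2 fold change of 0.22 and a Benjamini-Hochberg adjusted p = 1.00 by edgeR's quasi-likelihood test. Of 8 cell cycle genes 7 were above 0 and 1 below, none at an unadjusted p-value under 0.05. The median log2 fold change was -0.93 for erythroid genes and -0.51 for skeletal muscle genes, again with none at an unadjusted p-value under 0.05. Their summed levels ran from 155.7 to 2503.6 CPM in control and from 190.3 to 1148.5 CPM in *WD1* cKO for erythroid genes, and from 32.5 to 174.3 CPM and from 52.0 to 104.4 CPM for skeletal muscle genes. Beside these, the sum of the 31 macrophage genes was 209.4 CPM in control replicate 1, where erythroid genes were highest, and 251.4 CPM in control replicate 4, where erythroid genes were lowest. Other libraries did not keep this order. The macrophage sum was 248.7 CPM in *WD1* cKO replicate 3 and 226.5 CPM in control replicate 5, with erythroid genes at 512.5 and 183.8 CPM. A relation between the 2 sums was not tested.

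The remaining lists are given by their most abundant genes, with log2 fold changes of *WD1* cKO against control. In the sensory neuron list, where 8 of 8 genes passed the filter, they were -0.01 for *Prph* and 0.08 for *Nefl*, which encode intermediate filaments. In the list of Schwann and satellite glia, again with 8 of 8 genes, the value was 0.09 for *Mbp*, which encodes a myelin protein. The collagen genes *Col1a2* and *Col3a1* of fibroblasts were at 0.08 and 0.11, and the proliferation genes *Mki67* and *Top2a* at 0.12 and 0.14. In the lymphatic endothelium list, where 4 of 5 genes passed the filter, *Pdpn* was at -0.07 and *Reln* at 0.17 in the whole ganglion. For the globin genes *Hba-a1* and *Hbb-bs* the values were -1.57 and -0.93, with standard errors of 0.76 and 0.69, and for *Acta1* and *Myh3* of skeletal muscle -0.49 and -0.48. *Gata2* of mast cells and basophils was at -0.26, and its level was 8.84 CPM in control replicate 5 against at most 3.76 CPM in the other libraries. Of the spinal cord genes 1 of 5, *Gfap*, passed the filter, and *Slc6a5* had 99 counts in control replicate 3 and at most 11 in the other libraries. *Gp5* of platelets had 4 to 10 counts per library. None of the genes of these lists other than *Lum* reached an unadjusted p-value under 0.05.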

How the data were processed

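Stranded mRNA libraries of E18.5 DRG, 5 from control and 5 from *WD1* cKO embryos, were sequenced. The authors aligned reads with STAR 2.7.8a to GRCm39 and deposited the raw count of reads per gene from featureCounts 2.0.1, per the submitters' processing notes. The treatment of strand and of reads that map to several places is not given in the sources used here. Libraries were grouped by title. Each library was taken as 1 replicate, since the study counts embryos. Pairs of libraries within a group differed by more than sampling noise, which cannot by itself show that they came from different embryos.

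Genes that reached 10 counts in 5 or more libraries were scaled by TMM and compared by the quasi-likelihood test of edgeR 4.0.16 (R 4.3.3), and p-values were adjusted by the Benjamini-Hochberg method over 17490 genes. CPM used TMM library sizes. A counting error is that of the reads alone, and reads without molecular identifiers are not independent molecules. Symbols, exon lengths and overlaps came from GENCODE M21 on GRCm38, which is not the build of the counts, and matched 52081 of 55414 identifiers. The test was checked on simulated data. All 31 genes are named, with the 2 most abundant genes of each other list, those of unadjusted p-value under 0.05 and the 8 genes most like the 31. A gene that this rule names is not reported here. Some further genes are named for their known role, chosen after their values were seen. The members and lists were chosen with earlier results of these data known. Alternatives were DESeq2 1.42.0, other filters and scalings, the replicate number as a block, replicates 1 to 3 and 4 to 5 apart or as a covariate, and each library left out in turn.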

Additional observations from a re-analysis of the deposited data

Results flagged for a closer look

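*Ms4a7* reached 0.970 CPM in control replicate 2, while its level in the other control libraries was between 1.79 and 2.02 CPM, a gap that passed Dixon's 95% critical value of 0.71 for 5 samples. It was the 1 group of 66 examined (each of the 31 genes, *Dach1* and the sum of the 31 genes, in each genotype) to do so, and chance gives about 3.3. Without that library the log2 fold change of *Ms4a7* went from 0.13 to -0.013.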

How the results depend on the processing

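No macrophage gene had an adjusted p-value under 0.05 under any of the 19 other settings, where the smallest was 0.715, and *Dach1* passed in all of them. The number of all genes with an adjusted p-value under 0.05 was 7, and it became 4 at a mean count of at least 100, where 19 macrophage genes remained, 11 with replicates 1 to 3 against 4 and 5 as a covariate, 3 in replicates 1 to 3 only, 3 in replicates 4 and 5 only, 19 in DESeq2's Wald test, 3 without both libraries highest in neutrophil genes, and 3 to 6 with each library left out.

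The replicate numbers paired the libraries only in part by the correlation of their deviations, which was 0.040 for replicate 2 and 0.32 to 0.39 for the others. In replicates 1, 3 and 5 each library was most like the library of the same number in the other group. *WD1* cKO replicate 4 was most like control replicate 4, which was most like *WD1* cKO replicate 5. Both libraries of replicate 2 were most like replicate 1 of the other group. Used as a block, the replicate numbers gave 8 genes with an adjusted p-value under 0.05 and no macrophage gene.

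In replicates 1 to 3 only, 1 macrophage gene, *C1qb*, had an unadjusted p-value under 0.05 and did not overlap between groups (lower, log2 fold change -0.26, adjusted p = 0.926 in edgeR's quasi-likelihood test), and 1, *Fcgr1*, did not overlap in the higher direction. Of all genes tested, 2.51% were lower at that p-value there, 5.81% did not overlap in the lower and 5.68% in the higher direction. In replicates 4 and 5 only, with 2 libraries a group, 2 of the 31 genes did not overlap in the higher and 6 in the lower direction, against 17.8% and 19.1% of all genes tested. With each library left out, 0 to 1 macrophage genes had an unadjusted p-value under 0.05, *Cd68* without *WD1* cKO replicate 3 and *C1qb* without *WD1* cKO replicate 5, against 3.64% to 5.57% of all genes tested.

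No log2 fold change of the 31 genes was called, and many near 0 changed sign. In replicates 1 to 3 only, those of *C1qa* (0.030), *C1qc* (0.0078), *Fcgr3* (-0.037), *Adgre1* (-0.023), *Cd53* (0.084), *Laptm5* (0.013) did, in replicates 4 and 5 only, those of *Cx3cr1* (-0.096), *P2ry12* (0.11), *Cd14* (-0.36), *Ptprc* (-0.011), *Itgam* (0.18), *Pf4* (-0.080), and without both libraries highest in neutrophil genes, a setting chosen after seeing the data, those of *Ptprc* (-0.024), *Itgam* (0.19), *Pf4* (-0.028). With each library left out in turn the values that changed sign ran from -0.074 to 0.12 for *Irf8*, -0.087 to 0.036 for *P2ry12*, -0.11 to 0.022 for *C1qc*, -0.11 to 0.035 for *Tyrobp*, -0.012 to 0.11 for *Fcgr3*, -0.10 to 0.066 for *Mrc1*, -0.077 to 0.15 for *Cd14*, -0.043 to 0.065 for *Ptprc*, -0.23 to 0.29 for *Itgam*, -0.026 to 0.074 for *Adgre1*, -0.12 to 0.066 for *Cd53*, -0.11 to 0.063 for *Laptm5*, -0.013 to 0.22 for *Ms4a7*, -0.32 to 0.048 for *Lyz2*, -0.050 to 0.17 for *Cybb*, -0.034 to 0.16 for *Aif1*, -0.096 to 0.076 for *Pf4*, -0.14 to 0.026 for *F13a1*. The median over the 31 genes ran from -0.074 to 0.032. The cause of these changes was not tested. *Cd14* and *Itgam* had the fewest counts, at 7 to 31 per library. For *Itgam* the variation within groups was 49.5%, against 24.6% from counting.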
